A study of Mus musculus with 11 samples.

Results

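The control line of a study of gap junction loss was followed from undifferentiated mouse embryonic stem cells to embryoid bodies. It is represented by 5 of the 11 bead arrays in the series. The arrays were chosen by their labels, 2 of Cx43/45 flox stem cells and 3 of Cx43/45 flox embryoid bodies, and no measured value was used to choose them. The line is male, on a C57BL/6 background, and carries the genes of connexin43 and connexin45 flanked by recombination sites, so both stages share these alleles. Stem cells were grown on a feeder layer of mouse embryonic fibroblasts with 1000 U/ml leukemia inhibitory factor, and 1 array holds the pellet of 1 well. Embryoid bodies began as hanging drops of 2000 cells in medium without that factor and were collected on day 6, each array holding about 300 pooled bodies. The deleted line, of the same background, lacks exon 3 of both connexin genes, carries lacZ and eGFP reporters under their promoters, and has 6 arrays, 2 of stem cells and 4 of day 6 bodies. It is used below only for values set beside those of the control line.

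Embryonic stem cells stay undifferentiated while leukemia inhibitory factor acts on them. Without it, and when they are allowed to aggregate, they form embryoid bodies, in which an outer layer of primitive endoderm appears first and cells inside go on towards the germ layers. Transcripts of the undifferentiated state fade as those of the new lineages appear, so a comparison of both stages shows which RNAs come and go. The array reports RNA of a whole pellet, and a change in the share of cells that hold a transcript cannot be told apart from a change in its amount per cell. The stem cell pellets may also hold feeder fibroblasts, whose part in the results was not tested. Probes were not matched to genes here, so the results name array probes, the labelled cell types were not checked against their markers, and probe functions are not described.

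The array carries 45281 probes, and between 39.7% and 42.5% of them had a detection p-value under 0.05 on each of the 5 arrays. The median deposited intensity of probes with a detection p-value of 0.4 to 0.6, which is close to the array's background, was 113.8 and 122.2 units for stem cells and 111.7 to 114.3 units for embryoid bodies. After quantile normalization, which gives every array the same distribution of values, the first principal component of the 5 arrays held 79.7% of the variance and separated the stages, with stem cells at -68.7 and -59.0 and embryoid bodies at 38.2 to 48.3. The second held 10.2% and ran between the embryoid body arrays, from replicate 1 at -31.3 over replicate 2 at 1.91 to replicate 3 at 27.6. Arrays of different stages correlated across probes at r of 0.867 to 0.904, and arrays of the same stage at 0.969 to 0.986. The labels do not say which arrays came from separate cultures, and the p-values cover only the variation among these 5 arrays and those of the deleted line that share the fit.

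Nearly 2 probes in 5 changed between the stages. Of 23268 probes tested with limma, 8789 passed an adjusted p of 0.05, or 37.8%. Of these, 4264 were higher in embryoid bodies (18.3% of all tested) and 4525 were lower (19.4%). The median log2 change was 0.77 among the rising and -0.74 among the falling probes, against -0.01 over all probes tested. A change of 2-fold or more was reached by 1461 rising (6.28%) and 1319 falling probes (5.67%). At 4-fold there were 279 and 217, at 8-fold 55 and 38, and at 16-fold 17 and 10. Without background correction rising probes extended further, with 6 past 32-fold against 1 falling probe. Counts past 32-fold were not made with background correction, so no difference between rises and falls is read from this. When limma's treat test asked for a change beyond 2-fold in itself, 587 probes passed (2.52%), of which 306 rose (1.32%) and 281 fell (1.21%). Array background compresses the folds of dim probes, and a background correction (limma's neqc) raised the counts of at least 2-fold to 3189 and 3073 and the treat count to 1761.

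**Figure D1:**
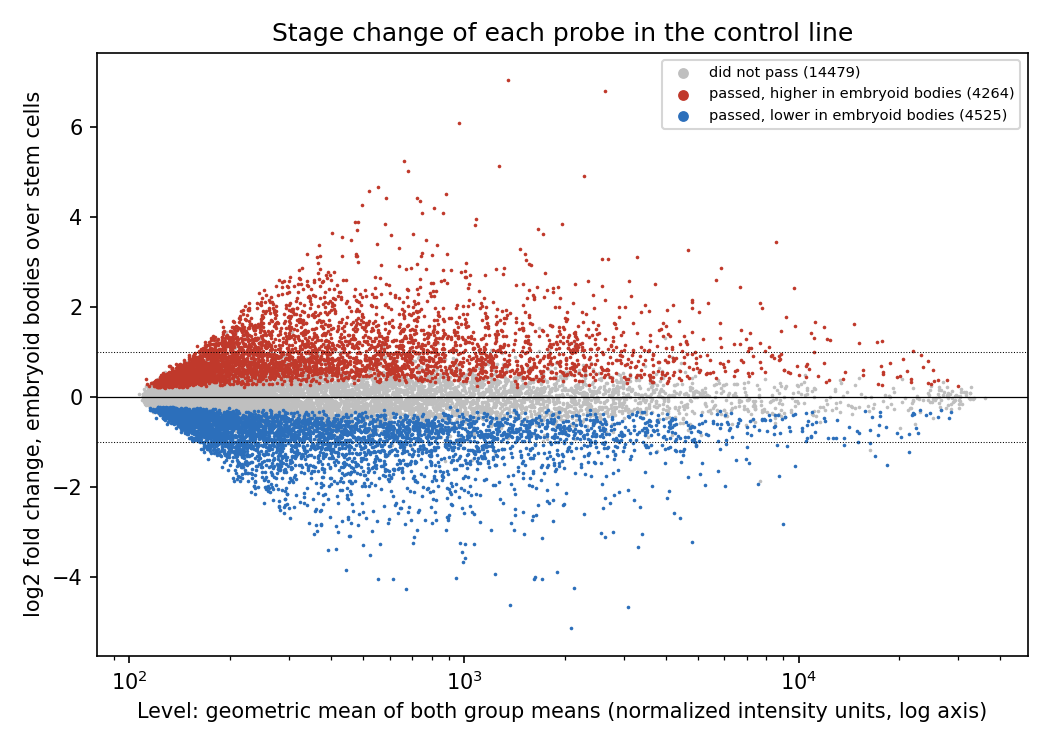
Each point is 1 of the 23268 tested probes, with its level over both control groups on the horizontal log axis (normalized intensity units) and its log2 change from stem cells to embryoid bodies on the vertical axis. Probes higher in embryoid bodies (4264, red) and lower (4525, blue) passed the limma threshold, grey ones did not, and the dotted lines mark 2-fold.

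The changes were carried by few arrays, and how many passed depended on the stem cell pair. On 8768 of the 8789 called probes the 2 stem cell and 3 embryoid body arrays did not overlap (37.7% of all tested). Called or not, arrays of the stages were apart on 13757 of the 23268 (59.1%). Without stem cell replicate 1 the count fell to 5232, and the treat count to 266. Calls that held their direction and threshold without any single control array numbered 4425, or 50.3% of the 8789, of which 2169 rose and 2256 fell. Larger changes were kept more completely, with 1252 of 1461 rises and 1127 of 1319 falls of at least 2-fold, and 53 of 55 and 37 of 38 of at least 8-fold.

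The share of probes that passed depended on brightness. Among 8473 probes with a level under 150 normalized intensity units, near the background, 14.3% passed and none of these calls reached 2-fold. Between 300 and 1000 units 53.7% of 5092 probes passed, and 25.6% did so with at least 2-fold. Of the 240 brightest, at 10000 units and over, 41.2% passed but 7.5% reached 2-fold. The median absolute log2 change in that group was 0.28, against 0.58 at 300 to 1000 units, and the median spread within groups was 0.126 against 0.217 on the same scale.

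**Figure D2:**
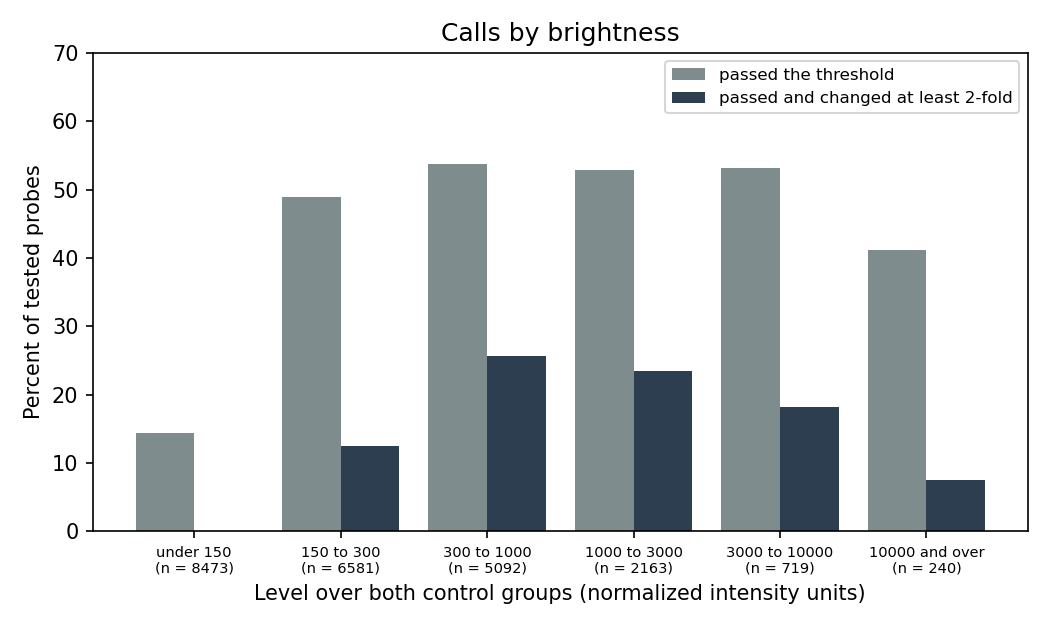
Bars give the percent of tested probes that passed the threshold (grey) and that passed with at least 2-fold change (dark), in 6 classes of level in normalized intensity units, with the number of probes under each class. Calls ran from 14.3% in the dimmest class to 53.7% at 300 to 1000 units, and 2-fold calls peaked in that class at 25.6%.

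Most probes that changed at least 2-fold without background correction were detected at both stages. Background compresses the folds of dim probes, and no call under 150 units reached 2-fold, so the cut leaves such probes out. Of the 1461 that rose at least 2-fold, 1197 (81.9%) were already detected on both stem cell arrays and 135 on neither. Of all tested probes, 16.9% were undetected on both stem cell arrays. Of the 1319 that fell at least 2-fold, 1101 (83.5%) were still detected on all 3 embryoid body arrays and 65 on none. The median level of the rising set went from 255.5 to 849.5 units and that of the falling set from 820.2 to 276.2. All 55 probes that rose at least 8-fold reached a mean of 1000 units or more in embryoid bodies. Of these, 37 (67.3%) were detected on both stem cell arrays and 12 on neither. All 38 that fell at least 8-fold began at 1000 units or more. Of these, 29 (76.3%) were detected on every embryoid body array and 2 on none. Without background correction, an 8-fold change from or to background already needs about 1000 units. The counts at that level therefore follow largely from the cut. Together, the probes called higher held 12.6% and 14.0% of the normalized signal summed over all 45281 probes on the stem cell arrays and 26.3% to 27.6% on the embryoid body arrays. The probes called lower held 28.9% and 27.2%, and then 14.2% to 15.1%. These shares describe probes chosen on the same arrays and add no support to the calls.

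Probes named by size, detection switch or p-value came only from calls whose stages did not overlap. Their separation was therefore fixed by the rule. The order of probes by fold depends on background, since neqc widens the changes of probes that are dim at 1 stage. In the order without that correction, the largest rises were of 2 kinds, steady and uneven across the embryoid body arrays. ILMN_2708477 read 207.8 and 300.8 units in stem cells and 25072, 29624 and 29624 in embryoid bodies, the equal pair being a shared rank after normalization. Its log2 change was 6.81 ± 0.33 (SE, limma adjusted p = 1.7e-06), or 112-fold in the fit. ILMN_1221157 went from 395.3 and 437.2 units to 10073, 13510 and 14417. It was present in stem cells and rose by 4.91 ± 0.27 on the log2 scale (SE, limma adjusted p = 3.9e-06). ILMN_2655795 went from 191.9 and 240.0 units to 5121, 8515 and 10015, a log2 change of 5.14 ± 0.29 (SE, limma adjusted p = 4.2e-06). In these 3 probes the lowest embryoid body array was replicate 1, and its gap to the highest stayed under 2-fold.

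ILMN_1225816 was undetected in stem cells, at 121.8 and 114.0 units, and stood at 30517, 25774 and 4811 units in embryoid bodies. Its log2 change was 7.05 ± 0.61 (SE, limma adjusted p = 3.5e-05), and 7.89 without embryoid body replicate 3. ILMN_1240267 stood at 101.6 and 113.1 units, undetected, and then at 14533, 7586 and 621.7 units. Replicate 3 was again the low array, and the log2 change of 5.25 ± 0.99 (SE, limma adjusted p = 0.0024) became 6.61 without it. ILMN_1212702 was at 123.0 and 115.1 units, undetected, and then at 10854, 6773 and 790.5 units, a log2 change of 5.02 ± 0.83 (SE, limma adjusted p = 0.0012) that was 6.17 without replicate 3. ILMN_3141257 was at 108.0 and 111.6 units, undetected, and then at 10041, 6865 and 319.2 units. It passed with 4.67 ± 1.12 (SE, limma adjusted p = 0.0088), but not without stem cell replicate 1 (limma adjusted p = 0.056) or in a fit of the control groups alone (limma adjusted p = 0.061). ILMN_2443330 differed from these 4. From 119.2 and 115.5 units, undetected, it went to 6158, 15662 and 5327 units, with replicate 2 standing high, and rose by 6.09 ± 0.37 on the log2 scale (SE, limma adjusted p = 5.2e-06). The sizes of these 5 changes are limited by background in stem cells. With neqc the log2 changes were 9.38 for ILMN_1225816, 8.44 for ILMN_2443330, 7.59 for ILMN_1240267, 7.28 for ILMN_1212702 and 6.92 for ILMN_3141257.

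**Figure D3:**
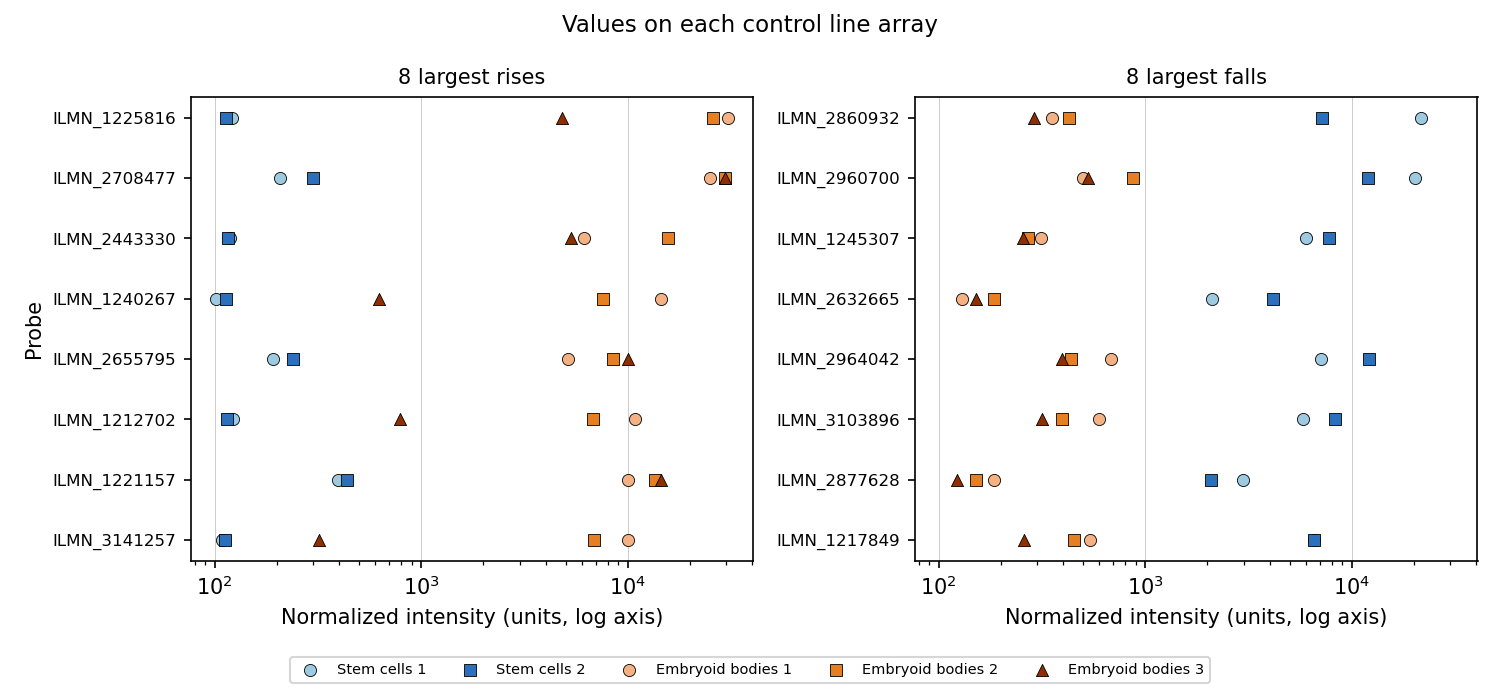
Normalized intensity (log axis) of the 8 probes with the largest rise, left, and the 8 with the largest fall, right, with 1 point per control line array (blue, 2 stem cell arrays, orange to brown, 3 embryoid body arrays). In 4 of the rising probes embryoid body replicate 3 stands far below replicates 1 and 2, as in ILMN_3141257 at 319.2 against 10041 and 6865 units, while the embryoid body arrays of the falling probes lie closer together.

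Low values on embryoid body replicate 3 also occurred outside the probes named by size. Across all 23268 tested probes, 18 were at least 4-fold lower on replicate 3 than on both other embryoid body arrays. The same count was 5 for replicate 1 and 0 for replicate 2, and at least 4-fold above both others stood 1 probe on replicate 2 and none on replicates 1 and 3. Of the 18, 9 were called higher and 1 lower in embryoid bodies, against 18.3% and 19.4% of all tested probes, and the choice used values that enter the call. On both stem cell arrays 8 were undetected, against 16.9% of all tested probes, and 6 were undetected on those and on all 6 arrays of the deleted line. Besides ILMN_1225816, ILMN_1240267 and ILMN_3141257 these 6 were ILMN_2723322, ILMN_2545963 and ILMN_1244316. ILMN_2723322 read 7995, 6253 and 330.6 units in embryoid bodies, ILMN_2545963 read 1434, 700.3 and 167.6, and ILMN_1244316 read 1030, 607.8 and 143.6. All 6 passed the stage test, with limma adjusted p from 3.5e-05 to 0.025. Undetected elsewhere, they could enter that test only through the control embryoid body arrays, so their passing adds no support. This set was picked after its values were seen, and its common profile is a description of 3 arrays.

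All of the largest falls began bright, as falls of that size must without background correction. They ended far lower, at levels from near background to several times above it. ILMN_2860932 stood at 21673 and 7131 units in stem cells and at 352.7, 428.8 and 289.9 in embryoid bodies. The stem cell arrays differed by 1.60 on the log2 scale, and the log2 change was -5.14 ± 0.39 (SE, limma adjusted p = 1.7e-05). It was -4.34 without stem cell replicate 1 and -5.94 without replicate 2. ILMN_2960700 fell from 20251 and 11919 units to 499.1, 870.5 and 525.0, by 4.67 ± 0.27 on the log2 scale (SE, limma adjusted p = 4.7e-06). ILMN_1245307 stood at 5983 and 7710 units and then at 312.3, 268.9 and 254.6, the tightest of the 8 in embryoid bodies, with a log2 change of -4.61 ± 0.26 (SE, limma adjusted p = 4.4e-06). In these 3 probes, as in all named by size, the naming rule allowed no overlap of the stages.

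ILMN_2632665 went from 2106 and 4134 units to 129.4, 184.5 and 151.6, where 2 of 3 arrays still detected it. ILMN_2877628 went from 2956 and 2084 units to 185.1, 151.9 and 122.3, also detected on 2 of 3 arrays. The log2 changes of this pair, -4.26 ± 0.27 and -4.04 ± 0.22 (SE, limma adjusted p = 6.8e-06 and 3.9e-06), are limited by background. ILMN_1217849 had nearly equal stem cell values of 6561 and 6531 units and fell to 542.4, 450.4 and 259.6, a log2 change of -4.04 ± 0.28 (SE, limma adjusted p = 1.2e-05). ILMN_2964042 fell from 7103 and 12056 units to 680.6, 435.4 and 397.0, and ILMN_3103896 from 5833 and 8244 units to 598.3, 393.3 and 316.5. Their log2 changes were -4.24 ± 0.56 and -4.04 ± 0.30 (SE, limma adjusted p = 0.00034 and 1.4e-05). Of the 38 probes that fell at least 8-fold, embryoid body replicate 3 was the lowest array in 28 and replicate 1 the highest in 24. The same order led, in a smaller share, among all 1319 falls of at least 2-fold. There replicate 3 was the lowest in 684 and replicate 1 the highest in 668. Among the 1461 rises of at least 2-fold, replicate 2 was most often the lowest, in 713, and replicate 3 the highest, in 633. In the 55 that rose at least 8-fold, the lowest array was replicate 1 in 19, replicate 2 in 22 and replicate 3 in 14.

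Ranked by units of intensity, other probes came forward that were bright at both stages. ILMN_2597769 gained 25704 units, next to ILMN_2708477 with 27853. It read 2427 and 2775 units in stem cells and 28340, 30234 and 26342 in embryoid bodies, and rose by 3.44 ± 0.38 on the log2 scale (SE, limma adjusted p = 0.00012). ILMN_1259869 read 2918 and 5921 units and then 22681, 18770 and 26815. The stem cell arrays differed 2-fold, and the log2 change was 2.44 ± 0.36 (SE, limma adjusted p = 0.00064), between 1.93 and 2.95 when single arrays were left out. The loss of units was largest for ILMN_1377923, from 25774 and 22144 units to 1552, 9455 and 2608. Embryoid body replicate 2 stood high, and the log2 change of -2.83 ± 0.69 (SE, limma adjusted p = 0.0099) no longer passed without stem cell replicate 1 (limma adjusted p = 0.067).

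Some of the brightest stem cell probes lost signal by a smaller factor. ILMN_2596522 stood at 32861 and 32031 units in stem cells and at 16560, 18587 and 8961 in embryoid bodies, a log2 change of -1.21 ± 0.27 (SE, limma adjusted p = 0.0065). ILMN_3090545 stood at 29853 and 32196 units and then at 19669, 13790 and 4772. Replicate 3 was low in both probes. The log2 change of ILMN_3090545, -1.51 ± 0.44 (SE, limma adjusted p = 0.023), was -0.91 without embryoid body replicate 3. It did not pass in a fit of the control groups alone (limma adjusted p = 0.11), or without stem cell replicate 1 or 2 (limma adjusted p = 0.092 and 0.10).

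Detection itself switched for a smaller set. A probe was counted as on in embryoid bodies when its detection p-value was at least 0.05 on both stem cell arrays and under 0.01 on all 3 embryoid body arrays, and as off for the reverse. There were 709 probes on and 387 off in embryoid bodies. Most were dim. The median level in the stage that detected them was 176.5 units for the first set and 174.4 for the second, and 12 of the 709 and 2 of the 387 reached 1000 units. At 0.01 on every array, 12214 of the 45281 probes (27.0%) were detected on all 5 and 25624 (56.6%) on none. The sizes of the sets moved with the limits, from 436 to 1146 for on and from 251 to 798 for off. They also grew when a stem cell array was left out, to 1086 on without replicate 2 and 647 off without replicate 1.

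The 4 brightest probes of the on set were ILMN_1225816, ILMN_2443330, ILMN_1240267 and ILMN_1212702, described above. In the off set the brightest was ILMN_2889832, at 1007 and 1625 units in stem cells and 124.8, 121.4 and 115.6 in embryoid bodies, a log2 change of -3.41 ± 0.16 (SE, limma adjusted p = 1.7e-06). ILMN_1239178 stood at 1122 and 936.8 units and then at 121.5, 125.3 and 127.1, a log2 change of -3.04 ± 0.12 (SE, limma adjusted p = 6.9e-07). Both fell to background on all 3 embryoid body arrays. ILMN_2757617 went from 616.8 and 963.5 units to 128.2, 113.4 and 116.1, and ILMN_2701160 from 808.2 and 556.4 to 122.9, 120.6 and 112.7, with log2 changes of -2.69 ± 0.26 and -2.50 ± 0.16 (SE, limma adjusted p = 6.3e-05 and 8.2e-06). The embryoid body values of all 4 sat at background, which limits the size of these changes. With neqc the log2 changes were -5.59, -5.10, -4.80 and -4.59, in the order given.

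The smallest p-values belonged to probes with even replicates, which follows from the spread that enters the p-value and is no separate result. ILMN_2934522 read 119.2 and 131.1 units in stem cells and 2003, 1644 and 1999 in embryoid bodies, a log2 change of 3.91 ± 0.10 (SE, limma adjusted p = 8.3e-08). ILMN_2506727 read 119.3 and 133.3 units and then 2920, 2417 and 2820, a log2 change of 4.43 ± 0.13 (SE, limma adjusted p = 2.2e-07). Each was detected on 1 of 2 stem cell arrays at 0.05, so background limits these folds, and with neqc the log2 changes were 6.01 and 6.52. ILMN_3142391 read 133.3 and 123.8 units and then 626.2, 627.3 and 649.4, a log2 change of 2.30 ± 0.08 (SE, limma adjusted p = 4.6e-07). The embryoid body arrays of this probe differed by 0.05 on the log2 scale. It too was detected on 1 of 2 stem cell arrays at 0.05, so background limits its fold, and with neqc its log2 change was 4.15. Of falling probes besides ILMN_1239178, ILMN_2888144 went from 3695 and 3540 units to 664.6, 576.8 and 623.6 (log2 change -2.54 ± 0.09 SE, limma adjusted p = 4.6e-07). ILMN_2604263 went from 2127 and 2130 units to 414.0, 412.6 and 378.2 (log2 change -2.41 ± 0.10 SE, limma adjusted p = 7.3e-07). Both remained detected on every array.

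The lists of the 100 and of the 500 brightest probes were mostly shared between stages, but of the 20 brightest only 9 (45%) were shared. A rank by brightness orders probes and not transcript abundance, since probes differ in how well they bind. Of the 100 brightest probes of each stage, 73 were shared, of which 8 passed the test and none with 2-fold change. Of the 27 in the embryoid body list alone, 24 were called higher, 8 of them at least 2-fold. Of the 27 in the stem cell list alone, 17 were called lower, 5 of them at least 2-fold. Of the 500 brightest, 375 were shared and 22 of these changed at least 2-fold. Of the 125 in the embryoid body list alone 77 rose at least 2-fold, and of the 125 in the stem cell list alone 56 fell as much. Of all tested probes, 18.3% were called higher and 19.4% lower, and 6.28% and 5.67% with at least 2-fold change. The lists were ranked on values that also enter the call, so nothing is read from these counts. Among the 500 brightest over the 5 arrays, the 4 probes with the change closest to 0 had fitted log2 changes of 0.00. Their standard errors ran from 0.10 for ILMN_2744045 to 0.31 for ILMN_2874853. Under median scaling their log2 changes ran from 0.15 for ILMN_2874853 to 0.19 for ILMN_2654896, and none passed. ILMN_2744045 read 11755 and 13121 units in stem cells and 12595, 12158 and 12539 in embryoid bodies, so the groups overlapped within a narrow range. ILMN_2654952 read 12728 and 9632 units and 10726, 11992 and 10652, and ILMN_2654896 read 14875 and 18078 and 13121, 17419 and 19340. ILMN_2874853 had the same mean change but uneven embryoid bodies, at 3256, 7476 and 7280 units against 4916 and 6396 in stem cells. The 4 probes were picked for a change near 0, so steadiness was not shown for any of them.

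Replicates of a stage also differed from each other. On 930 of the tested probes the 3 embryoid body arrays spanned at least 2-fold, and 318 of these (34.2%) passed the stage test, near the 37.8% of all probes tested. Replicate 1 stood apart below the other pair in 419 of the 930, and replicate 3 did so in 211. The stem cell arrays differed at least 2-fold on 116 probes, of which 73 (62.9%) passed and 68 were higher on replicate 1. Of those 68, 41 were called lower and none higher in embryoid bodies. Of the 48 higher on replicate 2, 14 were called lower and 18 higher, where 19.4% and 18.3% of all tested probes were. These sets were chosen on values that also enter the call, so nothing is read from the shares. Limma's estimated weights, where a larger weight means an array closer to its group, were 0.537, 1.54 and 0.732 for embryoid body replicates 1, 2 and 3.

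The widest spans in embryoid bodies, besides ILMN_3141257, were those of ILMN_1230073 and ILMN_2638923. ILMN_1230073 read 6196, 20063 and 274.4 units, around stem cell values of 1790 and 1133, and its log2 change of 1.19 ± 1.62 did not pass (SE, limma adjusted p = 0.61). ILMN_2638923 read 1531, 7513 and 178.4 units, around 657.8 and 455.8, with 1.21 ± 1.39 (SE, limma adjusted p = 0.54). Both had replicates 1 and 2 above and replicate 3 below the stem cell arrays. Between the stem cell arrays, ILMN_2710354 differed most, at 274.0 and 1005 units, and stood at 1671, 533.2 and 219.8 in embryoid bodies. ILMN_2710353 had the same order of arrays, at 219.6 and 774.7 and then 1188, 352.2 and 178.8 units. Their log2 changes of 0.15 ± 0.81 and 0.03 ± 0.78 did not pass (SE, limma adjusted p = 0.91 and 0.98). ILMN_1252407, at 370.0 and 1263 units in stem cells, stood higher on all embryoid body arrays, at 3076, 3552 and 4159. It rose by 2.38 ± 0.42 (SE, limma adjusted p = 0.0016), with 1.5 and 3.27 when stem cell replicate 1 or 2 was left out.

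**Figure D4:**
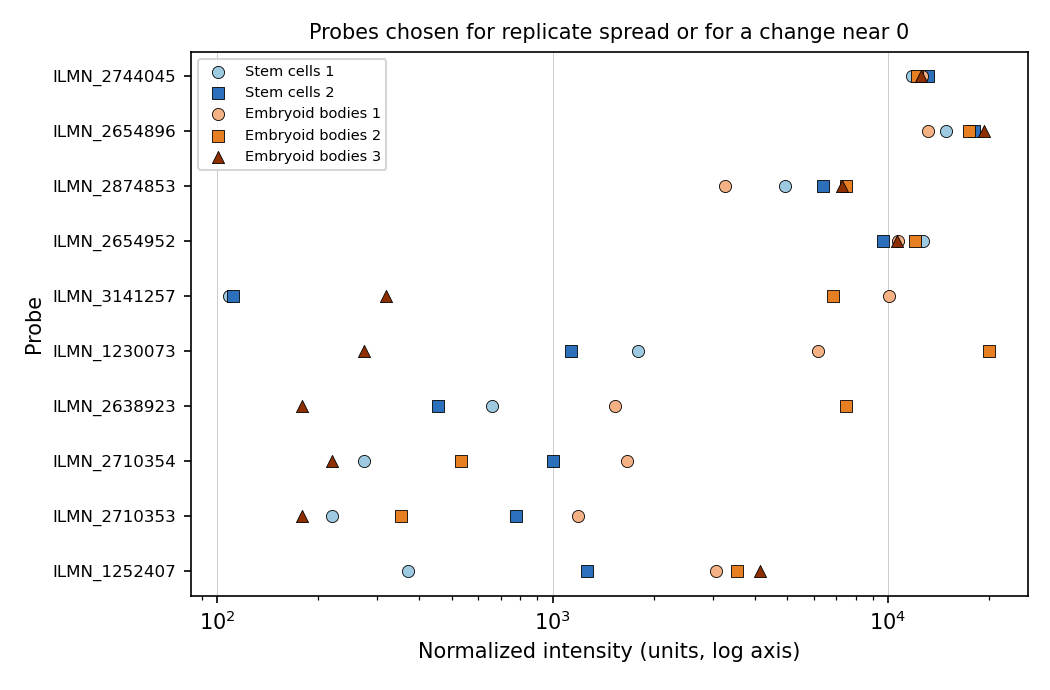
Normalized intensity (log axis) on each of the 5 control line arrays for the 4 bright probes with a change closest to 0, at the top, and 6 probes with the widest spread between replicates, below them. In ILMN_1230073 the 3 embryoid body arrays run from 274.4 to 20063 units, on both sides of the stem cell arrays, while ILMN_2744045 keeps all 5 arrays between 11755 and 13121 units.

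The deleted line was measured on other arrays, though in the same fit, and shared part of these changes. In that line 5189 probes passed (22.3%), with 10.5% of all tested probes rising and 11.8% falling. Of the control line's rises of at least 2-fold, 579 of 1461 (39.6%) also rose in the deleted line and 54 fell. Of its falls of at least 2-fold, 700 of 1319 (53.1%) also fell and 32 rose. At 8-fold these were 24 of 55 (43.6%) and 30 of 38 (78.9%), and at 16-fold 6 of 17 and 10 of 10. The difference between rises and falls was not tested. Both lines share the fit's estimate of spread for each probe, so their calls are not independent. The shares over all tested probes include the 8473 under 150 units, where no control line call reached 2-fold. They are therefore not a matched baseline for the larger changes. The count of the deleted line was 2627 without its stem cell replicate 2.

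**Figure D5:**
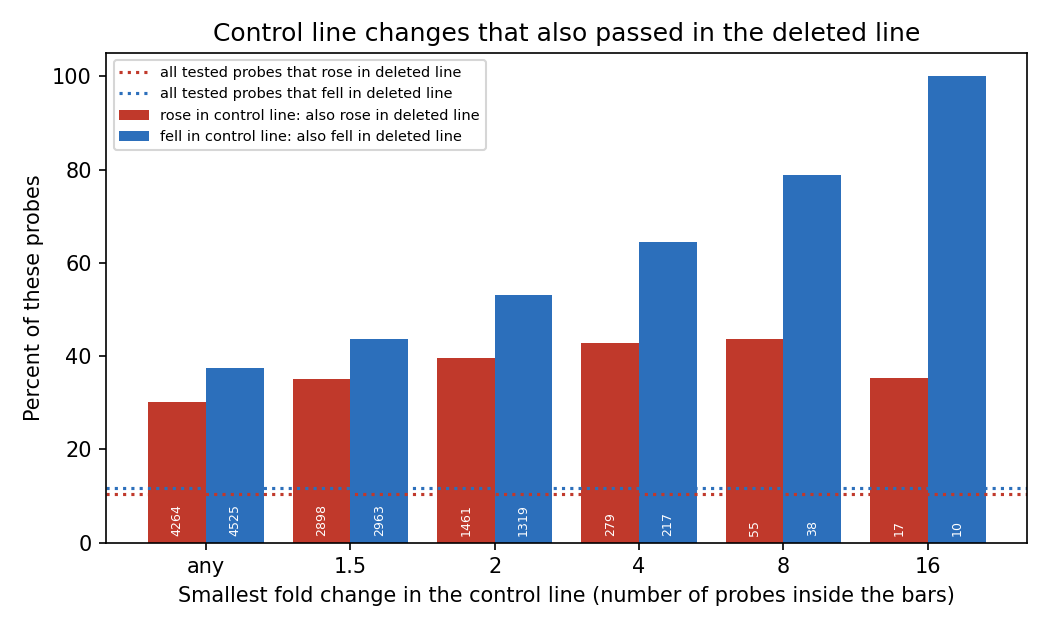
Bars give the percent of control line rises (red) and falls (blue) that passed in the same direction in the deleted line, by the smallest fold change in the control line, with the number of control line probes inside each bar. Dotted lines mark the percent of all tested probes, dim ones included, that rose (10.5%) or fell (11.8%) in the deleted line. The share of falls goes from 37.5% at any size to 10 of 10 at 16-fold, and that of rises stays between 30.1% and 43.6%.

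For single probes the lines were compared by the interaction, the control line's stage change minus that of the deleted line, which passed for 2693 probes (11.6%). The named probes were chosen for their control line values, so their interactions describe them and do not test the choice. ILMN_1245307, ILMN_2632665, ILMN_2964042 and ILMN_3103896 fell in the deleted line too, with log2 changes of -4.72, -4.31, -4.08 and -3.87. Their interactions were 0.10 ± 0.36, 0.04 ± 0.37, -0.16 ± 0.77 and -0.17 ± 0.41 (SE), none of which passed (limma adjusted p from 0.83 to 0.96). ILMN_2889832 fell to background in both lines, to 122.8 ± 4.51 units in deleted bodies (SD, n = 4). ILMN_1217849 fell less in the deleted line, to 3098 ± 646 units (SD, n = 4), an interaction of -3.11 ± 0.39 (SE, limma adjusted p = 0.0014). ILMN_2708477 rose in both lines, to 1703 ± 564 units in deleted bodies (SD, n = 4), an interaction of 3.81 ± 0.45 (SE, limma adjusted p = 0.00097). ILMN_2597769 went in opposite directions. From 4299 ± 1768 units (SD, n = 2) in deleted stem cells it fell to 1092 ± 554 (SD, n = 4), an interaction of 5.48 ± 0.52 (SE, limma adjusted p = 0.00032). ILMN_1259869 reached similar levels in both lines, at 23779 ± 4421 units in deleted bodies (SD, n = 4) against 22755 ± 4023 in control bodies (SD, n = 3), from a higher start of 11464 ± 5937 (SD, n = 2), and its interaction of 1.30 ± 0.50 did not pass (SE, limma adjusted p = 0.12).

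Switches in detection were set beside those of the deleted line. By the same limits that line had 197 probes on (0.435% of the 45281) and 234 off (0.517%) in embryoid bodies. Of these, 43 on probes were shared, 6.06% of the control line's 709 and 21.8% of the deleted line's 197. The shared off probes numbered 64, or 16.5% of 387 and 27.4% of 234. Of the 709, 276 were detected on all 4 deleted embryoid body arrays and 127 on none of them, and 261 were undetected on both deleted stem cell arrays, against 44 detected on both. The limits ask for agreement of every array and the lines have different numbers of arrays.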

How the data were processed

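RNA was measured on 11 Illumina MouseWG-6 arrays, 5 of them of the control line. The deposited intensity values, exported by the authors from GenomeStudio 2011.1 (Gene Expression module 1.9.0) per the series' design text, are not normalized between arrays. The authors also deposited a detection p-value per probe and array, in steps of 1 in 936. No source used here says whether background was subtracted, and the lowest value was 85.9, so no offset was added. The number of arrays limits the precision.

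All 11 arrays were quantile normalized and log2 transformed. Probes detected at a p-value below 0.05 on 2 or more arrays were kept (23268 of 45281). A model with 4 group means was fitted with limma 3.58.1 (R 4.3.3), so that all groups share the estimate of spread, with Benjamini-Hochberg adjustment over the probes kept and a threshold of 0.05. The fit was tested on simulated data. Standard errors are limma's, and folds are ratios of group means on the log2 scale.

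Probes were named by rule. From calls whose control arrays did not overlap came the 8 largest log2 changes each way, the 4 largest gains and losses of units, the 4 brightest switched on or off and the 3 smallest p-values each way. From all tested probes came the 4 changes closest to 0 among the 500 brightest and the 3 widest replicate spreads per group. The series was analysed before, and its parts and rules were chosen with earlier results of these data known. Alternatives were median scaling, neqc with an offset of 16, no filter, a filter at 0.01 on 3 arrays, a fit of only the groups compared, a block for the replicate number, trended robust moderation, each array left out, and, added later, array weights.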

Additional observations from a re-analysis of the deposited data

Results flagged for a closer look

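The stage change differed between the lines, by the interaction test in limma, for 17 of the 39 named probes, against 11.6% of all probes tested. The log2 difference, control minus deleted line, was 7.11 for ILMN_1225816, 5.83 for ILMN_2443330, 5.48 for ILMN_2597769, 5.22 for ILMN_1240267 and 5.07 for ILMN_1212702. It was 4.24 for ILMN_2506727, 3.81 for ILMN_2708477, 3.43 for ILMN_2655795, 3.16 for ILMN_2934522, 2.34 for ILMN_1221157 and 1.95 for ILMN_3142391. Among falling probes it was -3.11 for ILMN_1217849, -2.24 for ILMN_2960700, -2.14 for ILMN_2877628, -1.41 for ILMN_2888144, -0.82 for ILMN_2701160 and -0.72 for ILMN_2604263. In all 17 the difference has the sign of the control line's own change, and ILMN_2597769 passed in opposite directions in the 2 lines. The probes were picked for their control line values, which also enter the difference.

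In 1 of the 39 named probes, 1 deleted embryoid body array lay far from the other 3. ILMN_1225816 read 125.5 units on replicate 1 against 111.6 to 113.1, a gap of 0.895 of the range. All 4 values were undetected. The gap that marks such an array is smaller than this one, and chance passes that limit in about 1 of 20 groups.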

How the results depend on the processing

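No called value of a named probe changed sign. Of 507 values of the 39 named probes under the alternatives, 499 stayed on their side of the threshold, 7 no longer passed and 1 newly passed, and these 8 belong to the 4 probes ILMN_3141257, ILMN_1377923, ILMN_3090545 and ILMN_1230073. With neqc the counts of at least 2-fold rose to 3189 higher and 3073 lower, and the treat count to 1761. Leaving out single arrays gave 5232 to 8272 calls in the control line, 2462 to 4089 higher and 2770 to 4183 lower, and 266 to 520 beyond 2-fold by treat, the lowest in each case without stem cell replicate 1. The deleted line gave 2627 to 5074 calls and the interaction 945 to 3392, the lowest without deleted stem cell replicate 2 and control stem cell replicate 1. The interaction also gave 1356 without deleted stem cell replicate 1, and 1707 under median scaling. The cause was not tested. With detection at 0.05 there were 1146 probes on and 798 off, and with undetected set at 0.10 there were 436 and 251, which follows from looser and stricter limits. Leaving out single arrays can only enlarge these sets, to between 813 and 1086 on and between 467 and 647 off. The labels number the replicates but do not pair arrays across stages, so the numbers were not taken as pairs. Same-numbered control arrays of both stages deviated from their group means with r of -0.056 and -0.253. With 2 stem cell arrays the deviations mirror each other, so these values cannot show whether arrays were paired. With the replicate number as a block, 7483 probes passed in the control line, 3556 in the deleted line and 1855 for the interaction, ILMN_3090545 had a log2 change of -1.23 (limma adjusted p = 0.063) and ILMN_1230073 one of 2.62 (limma adjusted p = 0.039). Median scaling gave 7252 calls in the control line, 3880 higher and 3372 lower. Probes near background, under 150 units, can show only small changes.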
